A study of Homo sapiens with 6 samples.

Results

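The BTG and TOB genes encode a small family of antiproliferative proteins. The 5 genes described here, BTG1, BTG2, BTG3, TOB1 and TOB2, were taken by gene name from the 58735 genes of the deposited tables, and all 5 were found. They were followed in RNA-seq libraries of MDA-MB-231, a line of triple-negative human breast cancer cells labelled wild type. All cells had been stained with PKH26, a membrane dye that is diluted at each division, and grown for 12 days before sorting. Slow-cycling cells (SCC) were the brightest 1%, and rapid-cycling cells (RCC) were cells that the protocol calls moderate and the sample characteristics call low in dye. Each group had 3 libraries, described as biological replicates. Whether they came from separate cultures or sorts is not stated, so p-values measure the spread between these libraries. The line is a single cancer line in culture, and the sort reads dye that was retained, not division itself.

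Proteins of the family share an amino-terminal BTG domain. Through it they bind the deadenylase subunits CNOT7 and CNOT8 of the CCR4-NOT complex, which shortens the poly(A) tails of mRNAs and so speeds their decay. TOB1 and TOB2 also bind cytoplasmic poly(A)-binding protein, and BTG1 and BTG2 bind the arginine methyltransferase PRMT1. In many cell types the genes are expressed in resting cells, and forced expression of the proteins slows entry into S phase. BTG2 is also known as an early response gene.

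BTG1 and TOB1 were higher in SCC, each by a factor of about 1.3 to 1.4, and their libraries did not overlap between the groups. No difference was called for BTG2, BTG3 or TOB2. BTG1 (ENSG00000133639) lies on the minus strand of chromosome 12 from 92140278 to 92145897 on GRCh38 and has an open reading frame of 171 codons. TOB1 (ENSG00000141232) lies on the minus strand of chromosome 17 from 50862223 to 50867978 and has 345 codons. The sequences upstream of their starts are shown because these are the members that differed. They are from RefSeq (GRCh38.p14), run 5′ to 3′ on the minus strand, and leave out bases that GENCODE 29 places in an exon of the same gene. TOB1 has 2 starts in RefSeq, and the sequence before the downstream one lies in an intron of the longer transcript. Capitals mark a FOXO-type motif (TGTTTAC) and a half-site of the cAMP response element (TGACGT, here on the opposite strand).
BTG1, chr12:92145898-92146096: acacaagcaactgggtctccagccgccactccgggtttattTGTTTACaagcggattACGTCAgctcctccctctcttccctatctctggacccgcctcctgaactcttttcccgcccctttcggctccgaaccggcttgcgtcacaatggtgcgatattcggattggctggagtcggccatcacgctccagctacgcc
TOB1 upstream start, chr17:50867979-50868228: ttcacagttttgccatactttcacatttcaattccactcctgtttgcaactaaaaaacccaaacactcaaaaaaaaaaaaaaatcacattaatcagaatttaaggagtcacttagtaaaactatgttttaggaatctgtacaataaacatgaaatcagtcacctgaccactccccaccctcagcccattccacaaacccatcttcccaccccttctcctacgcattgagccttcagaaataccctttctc
TOB1 downstream start, chr17:50866355-50866604: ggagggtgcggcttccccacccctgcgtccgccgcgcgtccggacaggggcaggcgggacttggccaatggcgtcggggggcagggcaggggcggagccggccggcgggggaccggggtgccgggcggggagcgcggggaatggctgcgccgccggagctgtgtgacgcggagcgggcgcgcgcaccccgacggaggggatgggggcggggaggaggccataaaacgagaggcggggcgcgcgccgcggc

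These promoters differ widely in composition. Over the 250 bases before each start, GC content was 56.4% for BTG1, 38.4% for the upstream TOB1 start and 80.4% for the downstream one, with 18, 1 and 38 CpG dinucleotides. Motifs were searched on both strands in these 250 bases for all 6 promoters of the family and for all 35116 RefSeq promoters of that length. The AP-1 motif TGANTCA, the full cAMP response element TGACGTCA and the CArG box of serum response factor had 0 matches in the 6 promoters. Over all promoters they were found in 6.57%, 1.65% and 1.16%. A FOXO-type motif was found in BTG1 alone, at bases -209 to -203 from its RefSeq start, and in 2.98% of all promoters. The half-site TGACGT, a part of the full element chosen after the sequences were seen, was also in BTG1 alone (bases -193 to -188) and in 7.10% of all promoters. A TATAAA match, searched for in the same way, stood at bases -33 to -28 of BTG1, where GENCODE already places its first exon, and 10.7% of promoters hold one. A loose NF-kB form (GGG and CC with 5 free bases between) was in 54.4% of promoters and in BTG2, BTG3, TOB2 and the downstream TOB1 promoter. These matches describe letters only, and no binding was measured.

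Expression was compared as CPM, counts per unit of library size after TMM scaling, which uses a trimmed mean of log ratios between libraries. Differences were tested with edgeR's quasi-likelihood test over all 15881 genes that passed a filter on low counts, and all 5 members passed it. A gene was called at a Benjamini-Hochberg adjusted p under 0.05. BTG1, which binds both PRMT1 and the deadenylases, was at 63.6, 65.8 and 61.5 CPM in SCC replicates 1 to 3. In RCC it was at 45.3, 47.5 and 46.7 CPM. The lowest SCC library stood well above the highest RCC library, and the spread within each group was small beside the gap. The means were 63.6 ± 2.14 and 46.5 ± 1.09 CPM (SD, n = 3). The log2 fold change of SCC over RCC was 0.45 ± 0.072 (standard error), or 1.37-fold (95% interval 1.23 to 1.53). By edgeR's test the adjusted p was 0.0086.

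TOB1, first described as a transducer of the receptor ERBB2, was at 27.0, 24.1 and 24.7 CPM in SCC and at 19.04, 17.4 and 19.9 CPM in RCC. Again the groups did not overlap, with the highest value in SCC replicate 1. The means were 25.3 ± 1.51 and 18.8 ± 1.25 CPM (SD, n = 3). The log2 fold change was 0.43 ± 0.096 (standard error), a 1.35-fold difference (95% interval 1.16 to 1.56). The adjusted p of 0.0488 was just inside the threshold.

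**Figure D1:**
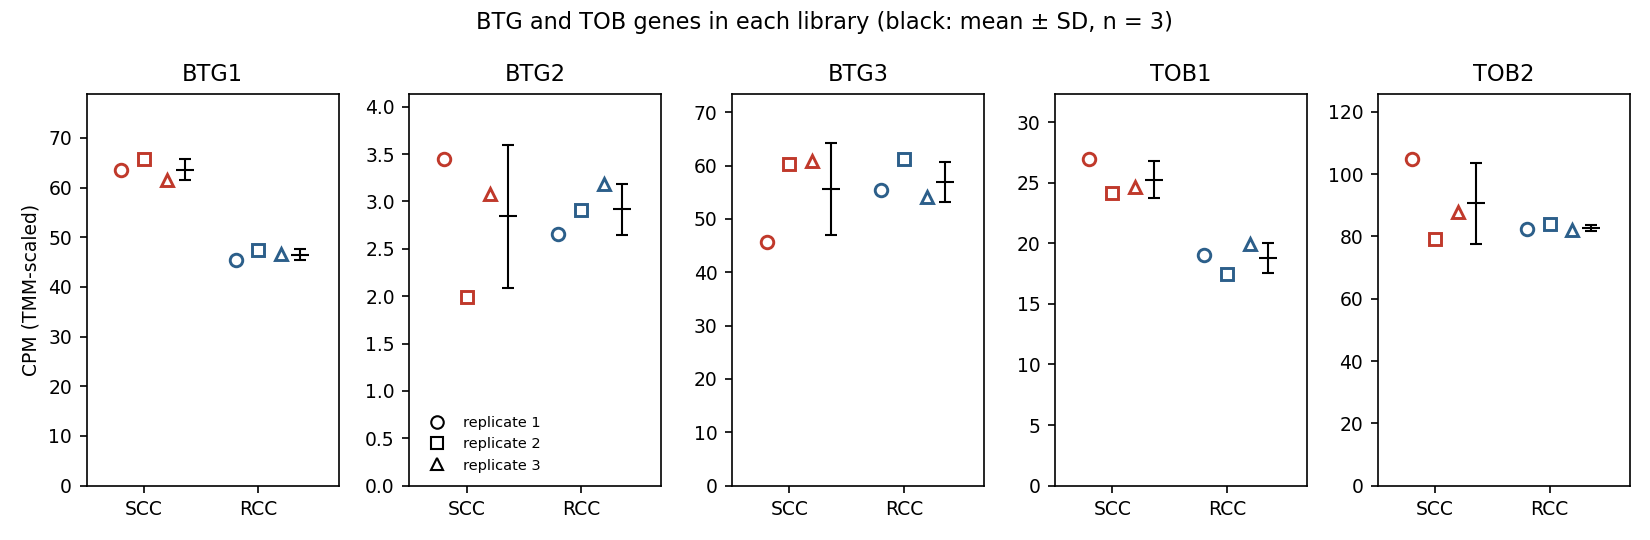
TMM-scaled CPM of BTG1, BTG2, BTG3, TOB1 and TOB2 in the 3 SCC (red) and 3 RCC (blue) libraries, with the mean and SD of each group in black and a separate axis from 0 for each gene. The SCC libraries of BTG1 (61.5 to 65.8) and TOB1 (24.1 to 27.0) all lie above their RCC libraries, while the groups overlap for the other genes.

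Thus 2 of the 5 members were called, both higher in SCC. Among all tested genes 1.69% were called higher, 0.378% lower and 2.07% in either direction. In the same 2 members the groups did not overlap with SCC higher. Among all tested genes the groups were apart with SCC higher in 14.4% and with SCC lower in 13.4%, together 27.8%. The median log2 fold change of the 5 members was 0.13 and that of all tested genes 0.00. Relative to all tested genes the rises were modest: 8.05% of genes had a higher fold change than BTG1 and 8.79% a higher one than TOB1. BTG1 was called in 15 of 20 alternative fits and TOB1 in 7, so the call of TOB1 rests on the settings. TOB1 was lost, among others, with upper-quartile scaling (adjusted p 0.0583), with counts thinned to the smallest library (0.0598) and with a length offset (0.0565). Neither call held in every fit with a library left out. Without RCC replicate 1, 2 or 3 the adjusted p of BTG1 was 0.106, 0.066 and 0.0787, and that of TOB1 0.205, 0.234 and 0.147, while without SCC replicate 3 only TOB1 was lost (0.117). Over all genes, 268 were called higher with every library. Without RCC replicate 1, 2 or 3 these were 99, 99 and 103, and without SCC replicate 1, 2 or 3 they were 642, 585 and 179.

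BTG2 (ENSG00000159388, plus strand of chromosome 1, 203305491 to 203309602) is the closest relative of BTG1 and has 158 codons. It was sparsely expressed, with 93, 39 and 65 counts in SCC and 61, 61 and 57 in RCC. These were 3.45, 1.99 and 3.08 CPM in SCC and 2.65, 2.92 and 3.19 CPM in RCC. SCC held both the highest and the lowest library, so the RCC values lay inside the SCC range. Exact 95% Poisson intervals, which cover counting error only, were 2.78 to 4.23 CPM for SCC replicate 1 and 1.42 to 2.73 CPM for SCC replicate 2. The log2 fold change was -0.02 ± 0.23 (standard error; adjusted p 0.966). Its 95% interval ran from 0.689-fold to 1.41-fold, which includes the 1.37-fold seen for BTG1, so a difference of that size lay within the error of this gene. The sign depended on single libraries, at 0.16 without SCC replicate 2 and 0.03 without RCC replicate 3.

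BTG3 (ENSG00000154640, minus strand of chromosome 21, 17593653 to 17612947) has 296 codons in its longest annotated reading frame, more than BTG1 and BTG2. It was at 45.7, 60.4 and 60.9 CPM in SCC and at 55.5, 61.3 and 54.1 CPM in RCC. SCC replicate 1 alone stood below all other libraries. The means were 55.7 ± 8.59 and 57.0 ± 3.80 CPM (SD, n = 3), with a log2 fold change of -0.04 (adjusted p 0.877, 95% interval 0.824-fold to 1.16-fold). Without SCC replicate 1 the log2 fold change was 0.09, and without RCC replicate 2 it was 0.02, neither called.

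TOB2 (ENSG00000183864, minus strand of chromosome 22, 41433492 to 41447023) is the paralog of TOB1 and has 344 codons. It was at 105, 79.3 and 87.8 CPM in SCC and at 82.3, 83.9 and 82.1 CPM in RCC. Here SCC replicate 1 stood above all other libraries, and SCC replicate 2 below them. The means were 90.7 ± 13.04 and 82.8 ± 0.97 CPM (SD, n = 3), and the log2 fold change of 0.13 was not called (adjusted p 0.451, 95% interval 0.947-fold to 1.27-fold). Without SCC replicate 1 it was 0.01.

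SCC replicate 1, the deepest library, differed from the others by GC content. Genes were put in 10 bins of equal size by GC content. In the bins that hold BTG1, TOB1 and BTG3 (transcript GC of 38.7%, 42.1% and 43.2%), the median log2 deviation of this library from the 6-library mean was -0.17, -0.14 and -0.08. In those that hold BTG2 (50.3%) and TOB2 (54.1%) it was 0.04 and 0.11. With an offset for GC content in the fit, log2 fold changes were 0.57 for BTG1 (adjusted p 7.7e-05), 0.51 for TOB1 (0.0065), -0.05 for BTG2, 0.02 for BTG3 and 0.06 for TOB2. The last 3 genes were again not called. Without SCC replicate 1, BTG1 was at 0.45 (adjusted p 3.1e-05) and TOB1 at 0.38 (0.0141). Summed counts over all genes ranged from 17655855 to 27831824 per library.

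**Figure D2:**
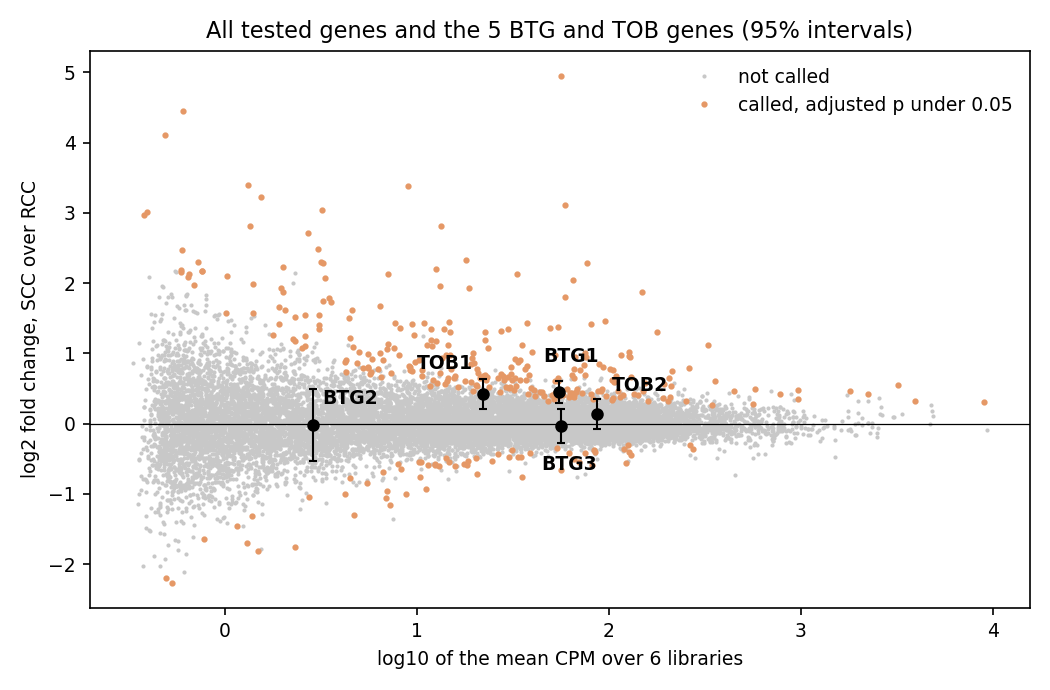
Log2 fold change of SCC over RCC against the log10 mean CPM of 15881 tested genes, with called genes in orange and the 5 BTG and TOB genes in black with 95% intervals. The intervals of BTG1 and TOB1 lie above 0, and those of BTG2, BTG3 and TOB2 span it.

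Levels were compared between genes as FPKM, which divides the count by gene length and library size. In RCC the order was BTG3 (23.3 to 26.7 FPKM), TOB2 (17.9 to 18.4), BTG1 (9.26 to 9.82), TOB1 (6.95 to 7.86) and BTG2 (0.954 to 1.15). No neighbours in this order overlapped. In SCC the levels were 19.5 to 26.3 FPKM for BTG3, 17.3 to 22.6 for TOB2, 12.6 to 13.5 for BTG1, 9.53 to 10.5 for TOB1 and 0.720 to 1.23 for BTG2. There BTG3 and TOB2 overlapped, and in SCC replicate 1 TOB2 was the higher, at 22.6 against 19.5 FPKM.

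The summed level of the 5 genes was 66.8, 67.1 and 69.01 FPKM in SCC and 59.5, 62.9 and 59.8 FPKM in RCC. BTG1 made up 18.3% to 20.1% of this sum in SCC and 15.6% to 16.0% in RCC, and TOB1 14.1% to 15.8% and 11.04% to 13.1%. BTG2 made up 1.07% to 1.92% in every library. Within libraries, BTG1 was at 10.5, 18.7 and 11.3 times the FPKM of its relative BTG2 in SCC and at 9.71, 9.26 and 8.31 times in RCC. The ratio of TOB1 to TOB2 was 0.466, 0.551 and 0.509 in SCC and 0.419, 0.377 and 0.439 in RCC. Both ratios were higher in each SCC library than in any RCC library. On the log2 scale the mean differences were 0.52 and 0.30. Without SCC replicate 2, where BTG2 was lowest, they were 0.26 and 0.24, so the first rests largely on that library. The 2 ratios were chosen after the values were seen and are given as a description, with no test. Their numerators are the 2 members called higher in SCC, so the ratios are not separate support for those calls.

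**Figure D3:**
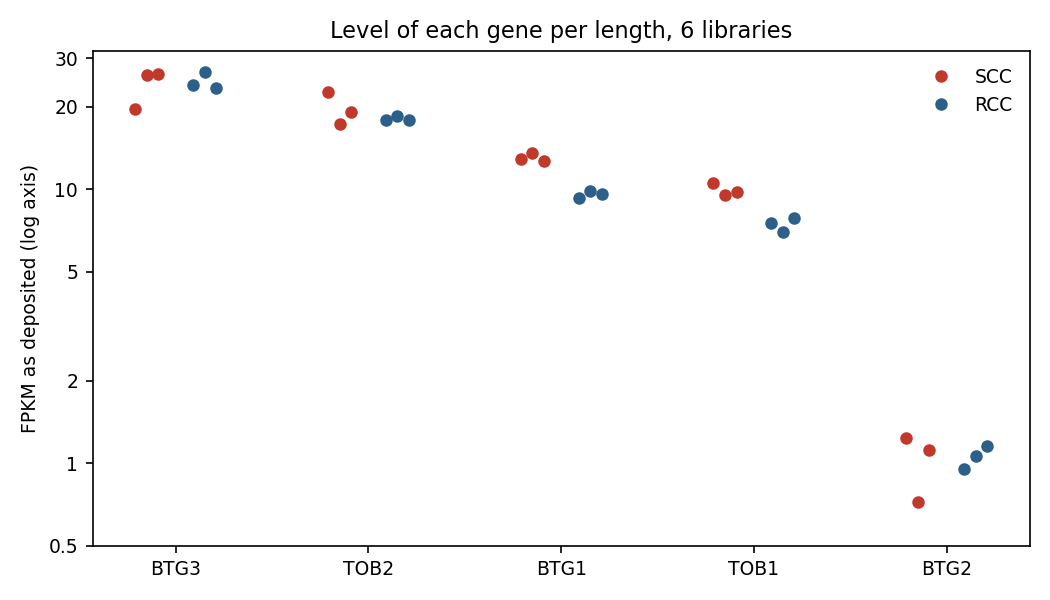
Deposited FPKM of the 5 genes in 3 SCC (red) and 3 RCC (blue) libraries on a log axis, ordered by the mean over all libraries. BTG3 and TOB2 lie highest, BTG1 and TOB1 lie between 6.95 and 13.5, and BTG2 lies near 1.

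BTG4, a family gene known from oocytes and outside the 5, had 1 count in SCC replicate 1 and 0 in the other 5 libraries. A count of 0 allows up to 0.130 to 0.168 CPM in these (3 counts).

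Several members overlap other annotated genes, and the use of strand in counting is not given in the sources used here. BTG1 shares 503 exonic bases with LINC01619 on its own strand and 325 with AC025164.1 on the other. LINC01619 had 11 to 28 counts per library and AC025164.1 0 to 3, against 834 to 1714 for BTG1. TOB1 shares 281 exonic bases with its antisense gene TOB1-AS1, which had 1 to 6 counts. BTG3 shares 280 with BTG3-AS1, which had 49, 20 and 18 counts in SCC and 12, 11 and 14 in RCC. The log2 fold change of BTG3-AS1 was 1.05 and was not called (adjusted p 0.190). BTG2 and TOB2 overlap no annotated gene. The pseudogenes BTG1P1 and BTG3P1 had 0 counts in every library, and TOB2P1 had 5 to 8.

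In the 3′ untranslated regions of 12501 tested coding genes, the pentamer ATTTA of AU-rich decay elements occurred at a median of 1.55 per kilobase. BTG3, with a short region of 440 bases, had 6.82 per kilobase, and TOB1, with 757 bases, had 5.28. These densities exceeded those of 95.9% and 91.5% of genes. They rest on 3 and 4 matches in short regions, and 59.5% and 66.5% of genes had fewer matches. BTG1, BTG2 and TOB2, with regions of 3802, 2164 and 2819 bases, had 1.32, 0.924 and 1.06 per kilobase, from 5, 2 and 3 matches. Fewer matches than in BTG1 were found in 72.0% of genes. BTG1 also held 4 matches to TGTANATA, the core of the Pumilio recognition element. At least that many were found in 1.29% of genes and any match in 26.3%, and the other 4 members had 0. These counts were not scaled to length, and the region of BTG1 is the longest of the family.

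The partners of the family in mRNA decay showed no called differences by edgeR. Before adjustment, a p under 0.05 was reached by 11.4% of all tested genes with SCC higher and by 8.27% with SCC lower, and the counts of the lists at that p are read against these shares. Of the 12 CCR4-NOT genes 0 were called. Of these, 1 was higher and 1 lower at an unadjusted p below 0.05, and DESeq2 also called 0. The median log2 fold change was -0.05. CNOT7 and CNOT8, the deadenylase subunits that bind the BTG domain, were at 67.0 ± 6.04 against 74.1 ± 4.61 CPM and at 51.8 ± 5.28 against 50.3 ± 4.23 CPM (SD, n = 3 each). Their adjusted p were 0.357 and 0.842, and both genes were added after their values were seen. CNOT6, a second type of deadenylase subunit, had the smallest p of the list. Its means were 101 ± 1.78 in SCC and 119 ± 2.99 CPM in RCC (SD, n = 3), with a log2 fold change of -0.23 (adjusted p 0.0903). Without SCC replicate 1 it was called lower (-0.22, adjusted p 0.0081), the only call in 20 alternatives. With the GC offset it was at -0.12 (0.233).

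Among 7 other deadenylase and poly(A)-binding protein genes, 0 were called by either tool, with 2 higher and 0 lower genes where the unadjusted p was below 0.05 (median -0.02). PAN2, the catalytic subunit of a separate deadenylase, had the smallest p, at 22.1 ± 0.75 against 17.2 ± 2.61 CPM (SD, n = 3). Its log2 fold change was 0.36 (adjusted p 0.138), and it was called without SCC replicate 1 (0.0375). Among 9 decapping and decay factors 0 were called by either tool and 0 had an unadjusted p under 0.05 (median -0.11). The smallest p was that of the helicase DDX6, whose log2 fold change was -0.15 (adjusted p 0.273), or -0.05 with the GC offset (0.58).

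Of 9 described protein partners, 8 were tested, 0 were called by either tool, and 1 was higher at an unadjusted p under 0.05 (median 0.09). That gene was CPEB3, an RNA-binding protein that recruits TOB proteins to mRNAs, with means of 6.82 ± 0.41 in SCC and 4.93 ± 0.54 CPM in RCC (SD, n = 3). The log2 fold change was 0.47 (adjusted p 0.133). CPEB3 was called in 1 of the 18 alternatives that tested it, with the GC offset and the replicate number as a block (0.0358).

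Among 8 described transcriptional regulators of the family, edgeR called 1 higher and 0 lower, with a median log2 fold change of 0.34. Before adjustment 4 of the 8 had a p under 0.05, all with SCC higher, and DESeq2 called 3 higher (EGR1, RELA and TP63). Over all 15881 tested genes DESeq2 called 474 higher and 182 lower. The gene called by edgeR was the early response factor EGR1, with means of 235 ± 52.2 in SCC and 64.0 ± 3.30 CPM in RCC (SD, n = 3) and a log2 fold change of 1.88 (adjusted p 2.6e-05). EGR1 was called in all 20 alternative fits. The FOXO factors, described as activators of BTG1, were added after their values were seen. By edgeR, FOXO1 and FOXO3 were not called (log2 differences 0.16 and 0.12, adjusted p 0.477 and 0.514). Nor was FOXO4, at 6.24 ± 1.11 against 4.0 ± 0.27 CPM (SD, n = 3), with a log2 difference of 0.65 (adjusted p 0.0886). RELA and TP63, named for their DESeq2 calls after the values were seen, had log2 differences of 0.33 and 1.46 and edgeR adjusted p of 0.106 and 0.0853. TP63 was sparsely expressed, at 1.54 ± 0.18 in SCC and 0.54 ± 0.28 CPM in RCC (SD, n = 3).

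BTG and TOB proteins are described as repressors of cyclin D1 and of the step from G1 to S phase. Of 10 genes of this step 9 were tested and 0 were called by edgeR, while 2 higher and 3 lower genes had an unadjusted p below 0.05 (median 0.06). DESeq2 called 1, CCNE2, lower, against 182 called lower of all 15881 tested genes. The cyclin E gene CCNE2 had the smallest p, with means of 17.99 ± 1.998 in SCC and 24.8 ± 1.64 CPM in RCC (SD, n = 3), a log2 fold change of -0.47 with an adjusted p of 0.0544. It was called in 8 of 20 alternatives. Cyclin D1 itself (CCND1, added after its values were seen) was at 761 ± 67.01 against 721 ± 13.2 CPM (SD, n = 3), with an adjusted p of 0.556.

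**Figure D4:**
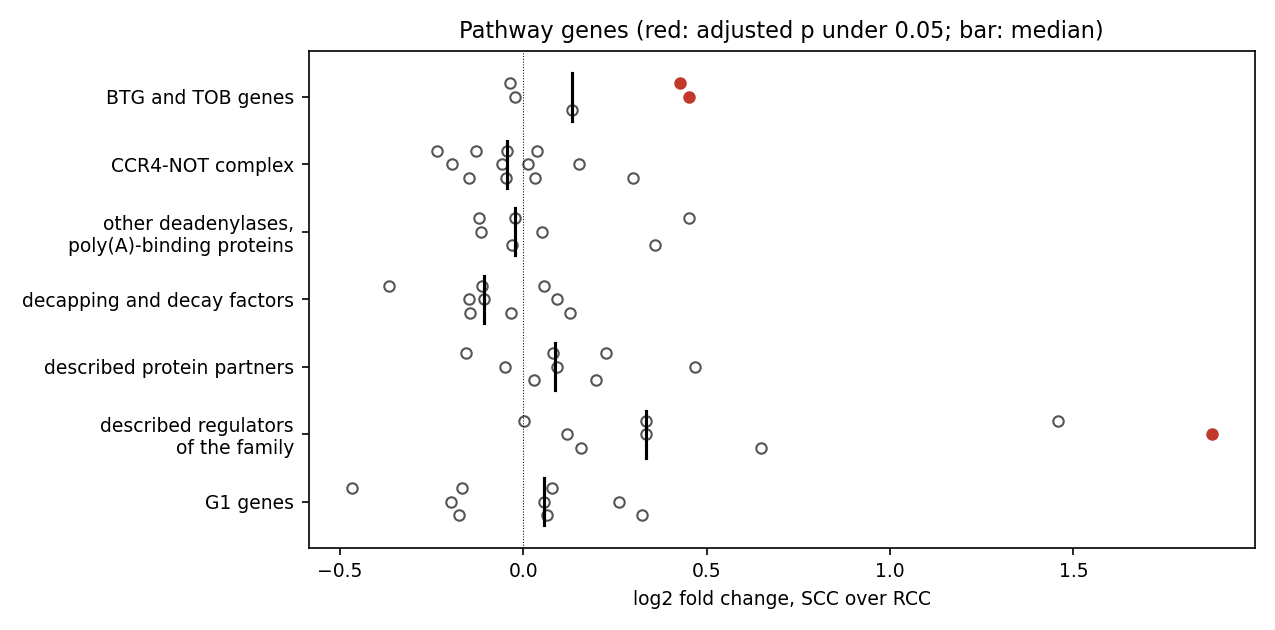
Log2 fold changes of SCC over RCC for the BTG and TOB genes and for 6 lists of pathway genes, 1 circle a gene, with called genes in red and the median of each list as a bar. Calls are found among the BTG and TOB genes and the described regulators, while all CCR4-NOT, other deadenylase and decapping genes are open circles.

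Genes with a profile like that of each member were ranked by Pearson r of log2 CPM over the 6 libraries, among 9653 or 9654 genes with a mean of at least 10 CPM. These are descriptions over points that share depth, group and library composition. The genes most like BTG1 were ADM (0.993), NRF1 (0.992) and NDRG1 (0.992), and those most like TOB1 were GPRC5C (0.995), YEATS2 (0.994) and TRIB1 (0.993). BTG3 was most like RBMX (0.997), HLTF (0.994) and NT5E (0.994), and TOB2 most like IL17RA (0.997), FBXW4 (0.997) and WDR18 (0.997). BTG2 was most like PLAGL2 (0.985), ESS2 (0.974) and FKBP2 (0.972). An r above 0.95 was reached with 426 genes for TOB2, 152 for TOB1, 135 for BTG1, 112 for BTG3 and 7 for BTG2.

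The libraries matched the label of a mesenchymal-like, hormone receptor-negative breast line. VIM, CD44, AXL and EGFR were at 33.3 to 171.6 FPKM, ESR1, PGR and CDH1 at 0 to 0.0698, EPCAM at 1.42 to 2.29 and ERBB2 at 6.88 to 10.2. Of 7 leukocyte, endothelial and fibroblast markers, CD3E, CDH5 and DCN were at 0 to 0.0700 FPKM and the other 4 at up to 1.62. The leukocyte sum over 3 markers was 0.217 to 0.495 FPKM in SCC and 0.133 to 0.219 in RCC, and the endothelial sum over 2 was 0.417 to 0.434 and 0.322 to 0.453. The fibroblast sum over 2 was 1.18 to 1.62 FPKM in SCC and 0.879 to 1.12 in RCC and came from COL1A1, with DCN at 0 to 0.0147. The part of these markers in the results was not tested. In sorted bulk samples, more cells with a transcript and more transcript per cell cannot be told apart.

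**Figure D5:**
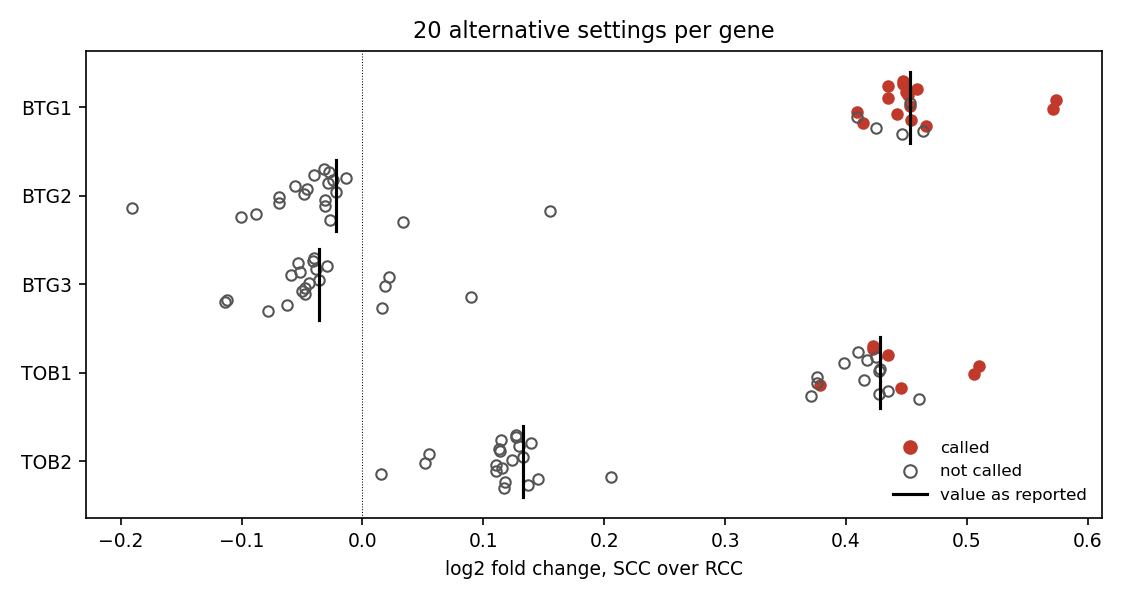
Log2 fold change of SCC over RCC of each member under 20 alternative settings, filled red where called and open where not, with the reported value as a black bar. BTG1 and TOB1 stay between 0.37 and 0.57, BTG2 and BTG3 lie on both sides of 0, and TOB2 lies between 0.01 and 0.21.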

How the data were processed

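RNA-seq counts and FPKM values per gene were used from 6 libraries of sorted MDA-MB-231 cells. The whole-number counts were deposited by the authors without normalization. HISAT2 2.0.5 and featureCounts 1.5.0-p3 are named in the submitters' processing notes, and the genome build, filters and strand setting are not given in the sources used here. The deposited FPKM equalled the count divided by gene length and by 1 constant per library (0.984 to 1.02 times the summed count). All 58735 genes matched GENCODE 29 on GRCh38 by ID and position, 27 names turned into dates were restored, and 58676 genes had a transcript for GC content. Codon numbers and 3′ untranslated regions were those of the coding transcript with the longest reading frame of each gene.

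Counts were filtered with filterByExpr by group (minimum count 10), scaled by TMM and fitted with edgeR 4.0.16 (R 4.3.3) glmQLFit on group, with Benjamini-Hochberg adjustment over 15881 genes. The fit was tested on simulated data. Standard errors are the absolute log2 fold change over the square root of F. SCC libraries summed to 27831824, 19498054 and 21166766 counts (replicates 1 to 3) and RCC libraries to 22746267, 20962062 and 17655855. Alternatives used DESeq2 1.42.0, limma 3.58.1, other scalings, filters and offsets, and each library left out. Named genes were the members, BTG4, overlapping genes, the called genes or else the smallest p of each list, and the 3 genes most like each member. Some list genes and 1 list are not reported here. The members, lists and tests were chosen with earlier results of these data known. Replicates differed beyond sampling noise (chi-square per degree of freedom 3.28 to 28.5). Pairs that held SCC replicate 1 stood at 21.4 and 28.5, and the other pairs at 3.28 to 4.24.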

Additional observations from a re-analysis of the deposited data

How the results depend on the processing

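BTG1 and TOB1 kept a positive log2 fold change in all 20 alternatives and BTG1 was called in 15, TOB1 in 7. BTG2, BTG3 and TOB2 were called in 0 of 20. For BTG1 the call was lost with a fold threshold of 1.2 in the test (log2 fold change 0.45). It was also lost on log2(FPKM + 1) without a filter (0.41) and without RCC replicate 1, 2 or 3. Over all fits without one library BTG1 ranged from 0.41 to 0.47. For TOB1 it was lost with upper-quartile scaling (0.41), a minimum of 10 counts per library (0.42), thinning to the smallest total (0.42), a length offset (0.40), the fold threshold (0.43), log2(FPKM + 1) with and without a filter (0.38 and 0.38) and log2(FPKM + 0.1) (0.42). The call of TOB1 was lost too with the replicate number as a block, without SCC replicate 3 and without RCC replicate 1, 2 or 3. Fits without one library ranged from 0.37 to 0.46. The cause was not tested.

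Deviations from the group mean in replicates sharing a number had correlations of -0.01, 0.02 and -0.08, and the numbers were not taken as pairs. With 3 libraries per group, and SCC replicate 1 set apart by GC content, this check cannot exclude pairing. Of the SCC libraries only replicate 2 correlated best with its own number. With the replicate number as a block TOB1 stood at 0.43 (adjusted p 0.0507), the block calling 350 genes higher and 106 lower, and with the block and the GC offset 621 and 430. BTG3 turned positive with the GC offset (0.022) and with the block and that offset (0.019), and ranged from -0.11 (without SCC replicate 3) to 0.090 (without SCC replicate 1). BTG2 ranged from -0.19 to 0.16 there.

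The number of members called was 1 with upper-quartile scaling, at least 10 counts, thinning, the length offset, the block, either filtered FPKM fit or an adjusted p under 0.01. It was 0 with the fold threshold and with FPKM unfiltered, and 0 to 2 without one library. Over all genes, 268 were called higher and 60 lower. DESeq2 gave 474 and 182, no filter beyond 1 count 995 and 315, and the GC offset 523 and 244. The fold threshold gave 107 and 11, log2(FPKM + 1) 130 and 36, log2(FPKM + 0.1) 117 and 34, and log2(FPKM + 1) unfiltered 48 and 1. Without one library the counts ranged from 99 to 642 and from 8 to 343. BTG2 had 39 to 93 counts per library.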
